A study of Homo sapiens with 12 samples.

Results

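The genes described here set the pace of the G1 phase in U937 cells, a human myelomonocytic leukemia cell line. They are the cyclin genes *CCND1*, *CCND2*, *CCND3* and *CCNE1*, the kinase genes *CDK4* and *CDK6*, the inhibitor genes *CDKN1B*, *CDKN2B* and *CDKN2D*, and *RB1*. They were chosen by gene symbol, as 10 of 44786 symbols, and the deposited matrix holds 75 of its 197782 transcripts under these symbols. Of the 75, 45 had at least 1 read and 9, from 8 of the 10 symbols, passed the filter for testing. RNA was measured in 12 libraries in 4 groups of 3, namely untreated cells and cells given 200 nM DAC, 1 µM ATRA or DAC + ATRA. DAC (decitabine) is built into DNA in place of cytosine and inactivates DNA methyltransferases, and ATRA (all-trans retinoic acid) activates retinoic acid receptors.

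The labels put all cultures in RPMI with 20% FCS and 5 ng/ml GM-CSF. They give a treatment of 3 days for DAC, ATRA and DAC + ATRA samples, with DAC given fresh each day. By the study's methods, ATRA was added only with the last dose of DAC, a shorter exposure. The length of ATRA exposure is therefore not settled here. The untreated samples are labelled 96 h and the treated samples 72 h, whereas the study's methods name the same harvest time for the whole experiment, a lower share of FCS and vehicle-treated controls. Which holds for these libraries is not settled here, and if the labels do, time in culture and treatment cannot be told apart in a comparison with untreated cells. The series describes its triplicates as technical, hence the p-values below measure the spread between libraries and say nothing of variation between cultures. Between 8042435 and 10683593 reads were counted per library, and 3 reads corresponded to 2.50 to 3.71 normalized reads. Of 9 genes that mark myelomonocytic cells, 7 had a mean of at least 10 normalized reads, whereas *PTPRC* was at 0 in every library and *FCER1G* reached at most 3.71. *PTPRC* has 28 transcripts in the matrix, and how reads on bases shared by transcripts were counted is not known. Its 0 therefore does not show that the RNA was absent. The summed level of these markers ran from 61306 to 68567 normalized reads in untreated, 38314 to 55708 in DAC, 40966 to 58777 in ATRA and 33724 to 36331 in DAC + ATRA libraries. Most of the sum was *MPO*, whose group means were 52578, 26797, 33292 and 15054 in the same order. Other markers of the list ran the opposite way, with *CEBPA* at 7791, 14951, 12596 and 12930, *LYZ* at 164, 806, 179 and 1097 and *ITGB2* at 133, 345, 455 and 544. Among markers of other lineages, the T cell and epithelial lists summed to at most 7.41 and 25.9 normalized reads. *HBB* (erythroid) and *DCN* (fibroblast) were at 0, while *KLF1*, also of the erythroid list, had group means of 114, 83.5, 94.96 and 66.1 in that order. The B cell list summed to 133 to 143 normalized reads in untreated and 1315 to 1394 in DAC + ATRA libraries, most of it *CD79A*. The fibroblast list, most of it *COL1A1*, summed to 14.6 to 21.2 in untreated, 211 to 274 in DAC and 128 to 164 in DAC + ATRA libraries. The part of these markers in the results below was not tested.

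In early G1, D-type cyclins bind CDK4 or CDK6, and the active kinase phosphorylates the retinoblastoma protein encoded by *RB1*. Phosphorylated retinoblastoma protein releases E2F factors, which switch on cyclin E and the genes of DNA replication. The INK4 proteins, among them p15 (*CDKN2B*) and p19 (*CDKN2D*), bind CDK4 and CDK6 and keep D-type cyclins away, whereas p27 (*CDKN1B*) binds assembled complexes of cyclins and kinases, including cyclin E with CDK2. In myeloid leukemia, *CDKN2B* is known for dense methylation of its promoter, and CDK6 for its high activity in several leukemia types.

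Promoter sequences are shown for *CDKN2B* and *CDKN2D*, which were upregulated with DAC, for *CDK6*, which was downregulated with every treatment, and for *CDKN1B*, which was not called. RefSeq (GRCh38.p14) listed a promoter for 8 of the 10 symbols, with 11 entries in all. Each line gives the 250 bases before the start, 5′ to 3′ on the strand of the gene. The start was that of the measured transcript for *CDKN2B*, *CDKN2D* and *CDKN1B*, and lay 42 bp upstream of it for *CDK6*. Capitals mark the Sp1 letters GGGCGG on either strand. 
*CDKN2B* (chr9:22009306-22009555, minus strand): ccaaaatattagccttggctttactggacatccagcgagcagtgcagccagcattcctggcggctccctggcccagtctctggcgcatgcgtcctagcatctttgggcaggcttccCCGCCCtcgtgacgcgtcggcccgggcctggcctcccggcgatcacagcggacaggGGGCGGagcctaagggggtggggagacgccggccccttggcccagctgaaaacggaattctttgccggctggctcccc
*CDKN2D* (chr19:10568980-10569229, minus strand): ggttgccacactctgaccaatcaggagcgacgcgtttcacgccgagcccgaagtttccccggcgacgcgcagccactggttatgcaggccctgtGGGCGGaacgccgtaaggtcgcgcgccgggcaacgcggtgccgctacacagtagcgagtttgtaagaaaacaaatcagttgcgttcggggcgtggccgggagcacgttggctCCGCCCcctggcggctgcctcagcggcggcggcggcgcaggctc
*CDK6* (chr7:92833960-92834209, minus strand): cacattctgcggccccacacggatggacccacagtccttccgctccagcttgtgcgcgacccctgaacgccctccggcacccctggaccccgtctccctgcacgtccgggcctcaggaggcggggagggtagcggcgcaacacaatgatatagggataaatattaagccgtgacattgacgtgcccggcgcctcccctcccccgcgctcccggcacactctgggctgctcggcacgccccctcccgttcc
*CDKN1B* (chr12:12717118-12717367, plus strand): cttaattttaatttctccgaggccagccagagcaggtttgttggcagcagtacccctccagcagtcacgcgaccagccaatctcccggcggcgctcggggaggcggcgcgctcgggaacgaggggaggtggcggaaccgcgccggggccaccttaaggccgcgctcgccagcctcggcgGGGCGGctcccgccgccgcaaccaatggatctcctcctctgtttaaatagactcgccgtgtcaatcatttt

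In the window of these bases plus the first 50 of the transcript, *CDKN2B* held 25 CpG dinucleotides, *CDKN2D* 36, *CDK6* 29 and *CDKN1B* 29. Over all 35116 promoters of the table the median was 14 CpG, with 10th and 90th percentiles of 1 and 37. GGGCGG occurred 2 times in the *CDKN2B* window, 3 times in that of *CDKN2D*, 1 time in that of *CDKN1B* and 0 times in that of *CDK6*, and 45.0% of all promoters held it. A further *CDK6* entry, whose start lies 2656 bp upstream of that of the measured transcript, had 37 CpG and 3 matches. *CCNE1*, whose window starts at its own transcript, had 47 CpG and 7 matches, and *CDK4* 23 CpG and 3 matches. The E2F letters TTTCCCGC and TTTGGCGC were searched on both strands and are held by 1.63% and 0.652% of all promoters. None of the windows of *CDKN2B*, *CDKN2D*, *CDK6*, *CDKN1B*, *CCNE1*, *CDK4* and *CCND3* had a match to either. The same windows had no match to AGGTCA, the half-site that nuclear receptors such as the retinoic acid receptors bind, which 13.8% of all promoters hold. The entry for *RB1* had 1 such match and no E2F match, but its start, chr13:48476450, lies far downstream of that of the measured transcript, chr13:48303751.

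Of the protein-coding transcripts of a symbol, the leading one, that of the highest mean, stands for it, and values are normalized read counts, the reads divided by the size factor of the library. How reads on bases shared by several transcripts were counted is not given in the sources used here, so levels are compared between groups of a gene and not between genes. Differences are log2 fold changes on the log2(normalized read count + 1) scale with their standard error (SE) from limma, and a gene is called up- or downregulated at a Benjamini-Hochberg adjusted p under 0.01 over the 9016 protein-coding transcripts tested. Exact permutation tests of 3 against 3 libraries cannot go below p = 0.1, the value at any comparison whose groups do not overlap. Under the deposited scaling, DAC shifted the median of everything tested by 0.22, ATRA by 0.00 and DAC + ATRA by 0.20 (log2), and under TMM scaling 0.02, -0.01 and 0.06. Values of the members relative to this median are therefore given for DAC and DAC + ATRA, except for *CCND3*.

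Among the 8 members tested, DAC upregulated *CCND1*, *CCND2*, *CDKN2B* and *CDKN2D* and downregulated *CDK6*. The background was high, since DAC upregulated 30.6% and downregulated 8.7% of all transcripts tested. Of the transcripts called with DAC, 77.9% were upregulated with the deposited scaling and 58.8% with TMM in edgeR. ATRA downregulated *CCND2*, *CDK6* and *CDKN2B* and upregulated 0 members, at a background of 2.67% lower and 6.47% higher. At an unadjusted p under 0.05, 6 of the 8 differed with ATRA, and edgeR with TMM and DESeq2 upregulated 0. Both downregulated *CCND2*, *CDK6* and *CDKN1B* and did not call *CDKN2B*. DAC + ATRA called the members that DAC called, in the same directions, at a background of 32.6% higher and 14.2% lower. Of all its calls 69.7% were upregulated, and 58.9% with TMM. The 3 comparisons share the untreated libraries, so their calls are not independent of each other. At the median of the 8 members, DAC gave a log2 fold change of 0.69, ATRA one of -0.43 and the combination one of 0.46.

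**Figure D1:**
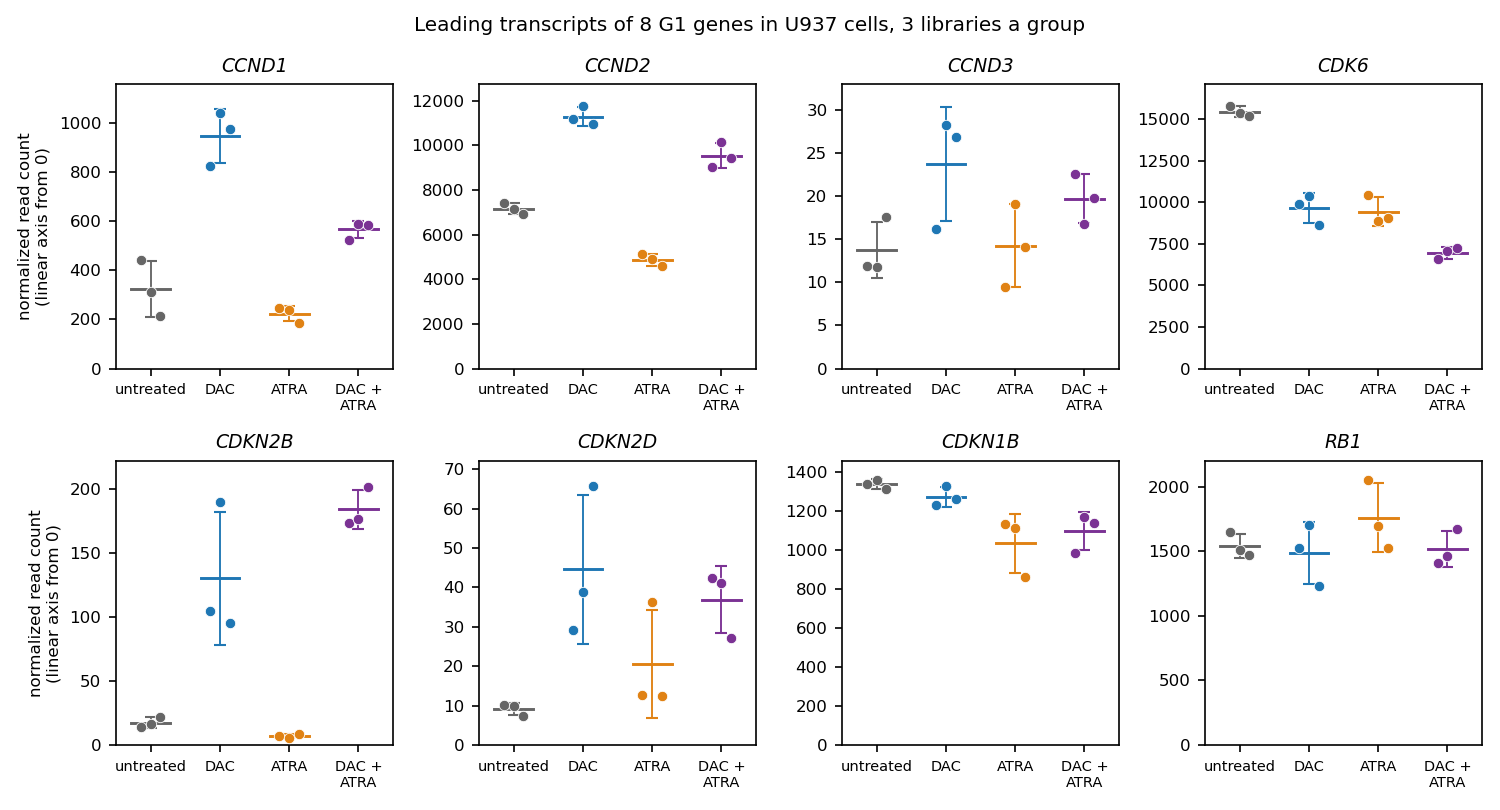
Normalized read count (linear axis from 0) of the leading transcript of 8 genes in the 4 groups. Points are libraries, horizontal lines group means and bars the SD (n = 3); *CDK6* was highest in the 3 untreated libraries, and *CDKN2B* was highest in the DAC and DAC + ATRA libraries.

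The D-type cyclin gene *CCND1* (ENST00000227507, chr11:69641156-69654474, plus strand, hg38, 5 exons) had 442, 312 and 215 normalized reads in the untreated libraries. It had 826, 1042 and 975 with DAC, 245, 238 and 187 with ATRA, and 525, 588 and 586 with DAC + ATRA. All DAC and DAC + ATRA libraries lay above all untreated ones, the untreated libraries spread widely, and those of ATRA overlapped them. DAC raised *CCND1* 2.93-fold (log2 fold change 1.60, SE 0.19, adjusted p = 1.02e-06, limma), or by 1.38 relative to the median of all transcripts. In bulk RNA, fewer cells of a type and less RNA per cell cannot be told apart, here and in what follows. With DAC + ATRA the rise was 0.87 (SE 0.19, adjusted p = 7.05e-04, limma), or 0.67 relative to the median, and it missed the threshold in the fit of these 2 groups alone (adjusted p = 0.0153). ATRA alone gave -0.48 (adjusted p = 0.105, limma). This rested on the untreated libraries, with -0.74 (adjusted p = 0.00337) without library 3, their lowest, and -0.22 (adjusted p = 0.466) without library 1, their highest. *LTO1*, on the opposite strand, shares 468 bases of the counted part of *CCND1* with its transcript ENST00000542515, which had 455 reads over all libraries against 6203 of *CCND1*. The strand setting of the read counting is not given in the sources used here, so reads of these bases cannot be assigned with certainty.

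*CCND2* (ENST00000261254, chr12:4273762-4305353, plus strand, 5 exons), another D-type cyclin gene, followed the same order of groups with far less spread. Its untreated libraries had 7416, 7166 and 6912 normalized reads, against 11175, 11769 and 10946 with DAC. With ATRA it fell to 5143, 4903 and 4598, and with DAC + ATRA it stood at 9038, 10136 and 9437. The 4 groups did not overlap, with ATRA lowest, then untreated, then DAC + ATRA, and DAC highest. The log2 fold change was 0.66 with DAC (SE 0.083, adjusted p = 1.14e-06, limma), 0.41 with DAC + ATRA (adjusted p = 2.55e-04) and -0.55 with ATRA (adjusted p = 4.80e-05). Relative to the median of all transcripts, the rises came to 0.44 and 0.21. *CCND2* was called in these directions in all 24 alternatives of each comparison with untreated cells. A retained-intron transcript of *CCND2* (ENST00000536795), outside the protein-coding set, was at 11.8 to 19.4 normalized reads in untreated, 12.9 to 15.1 in DAC, 1.06 to 8.19 in ATRA and 4.94 to 9.94 in DAC + ATRA libraries. It passed the filter on low values only through libraries without ATRA, where it was high, and is described without a test.

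*CCND3* codes for the last of the D-type cyclins and rested on few reads, 614 over its 23 annotated transcripts and all libraries. Its leading transcript (ENST00000512426, chr6:41936196-41940585, minus strand, 3 exons) had 11.9, 11.8 and 17.5 normalized reads in untreated, 16.2, 28.3 and 26.9 in DAC, 9.504, 19.1 and 14.1 in ATRA and 22.6, 16.8 and 19.8 in DAC + ATRA libraries. The groups overlapped, and no comparison of this transcript passed the threshold (DAC 0.73, adjusted p = 0.0525, limma). The longer transcript ENST00000372987 (chr6:41934956-41941519, 5 exons) had 2.76, 1.82 and 4.62 normalized reads in untreated, 8.65, 11.7 and 13.9 in DAC, 7.39, 3.64 and 3.33 in ATRA and 7.23, 9.47 and 21.0 in DAC + ATRA libraries. ENST00000514382, which has no defined coding sequence and starts at chr6:42048688, far upstream of the others, was at 2.76 to 5.46 in untreated, 11.9 to 15.6 in DAC, 1.06 to 4.99 in ATRA and 13.6 to 17.9 in DAC + ATRA libraries. Both passed the filter on low values only through libraries with DAC, where they were high, so their values are given as a description without a test. Summed over the protein-coding transcripts, *CCND3* was upregulated with DAC (1.01, adjusted p = 0.00140) and with DAC + ATRA (0.95, adjusted p = 0.00192).

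The G1 kinase gene *CDK6* (ENST00000265734, chr7:92604921-92833917, minus strand, 8 exons) was downregulated with every treatment. Its untreated libraries had 15813, 15363 and 15208 normalized reads, all above every treated library. With DAC the values were 9924, 10359.7 and 8645, with ATRA 10446, 8861 and 9033, and with DAC + ATRA 6575, 7091 and 7250. DAC and ATRA libraries overlapped each other, and the 3 DAC + ATRA libraries were the lowest of the 12. The mean was 37.6% lower with DAC, 38.9% lower with ATRA and 54.9% lower with DAC + ATRA than in untreated cells. The corresponding log2 fold changes were -0.69 (adjusted p = 2.29e-06), -0.71 (adjusted p = 6.46e-06) and -1.15 (SE 0.091, adjusted p = 9.16e-10, limma). Relative to the median of all transcripts, DAC gave -0.91 and DAC + ATRA -1.35. *CDK6* was called lower in all 24 alternatives of each of these comparisons.

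The INK4 inhibitor gene *CDKN2B* (p15, ENST00000276925, chr9:22002903-22009305, minus strand, 2 exons) showed the widest range of the tested members on the log2 scale. In untreated libraries it had 13.8, 16.4 and 22.2 normalized reads, and in ATRA libraries 7.39, 5.46 and 8.32. With DAC it reached 105, 190.0 and 95.6, and with DAC + ATRA 174, 177 and 201. ATRA lay below untreated without overlap, both DAC groups lay far above, and DAC library 5 fell within the range of the DAC + ATRA libraries. DAC raised *CDKN2B* 7.46-fold (log2 fold change 2.79, SE 0.25, adjusted p = 9.70e-09, limma), or by 2.56 relative to the median. DAC + ATRA raised it 10.5-fold (3.35, SE 0.25, adjusted p = 4.31e-10), or by 3.15 relative to the median. Both calls held in all 23 alternatives. With ATRA alone the log2 fold change was -1.19 (SE 0.25, adjusted p = 0.00216, limma), a difference of 57 against 23 reads over 3 libraries each, and it missed the threshold in 7 of 23 alternatives. Among these were edgeR with TMM (adjusted p = 0.0304), DESeq2 (0.0126) and the fits without untreated library 3 (-1.01, adjusted p = 0.0188) or without ATRA library 8 (-1.04, adjusted p = 0.0122).

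*CDKN2D* (p19, ENST00000393599, chr19:10566460-10568979, minus strand, 2 exons), also an INK4 gene, had 10.11, 10.01 and 7.39 normalized reads in untreated libraries. It had 29.2, 39.0 and 65.7 with DAC, 12.7, 36.4 and 12.5 with ATRA, and 42.5, 41.1 and 27.2 with DAC + ATRA. Every treated library lay above every untreated one, and ATRA library 8 stood among the DAC values. The log2 fold change was 2.10 with DAC (SE 0.36, adjusted p = 5.93e-05, limma) and 1.88 with DAC + ATRA (SE 0.36, adjusted p = 1.53e-04), or 1.88 and 1.68 relative to the median, and these held in all 23 alternatives. For ATRA alone it was 0.92 with an adjusted p of 0.102, and 0.43 without ATRA library 8.

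*CDKN1B* (p27, ENST00000228872, chr12:12717368-12722369, plus strand, 3 exons) did not pass the threshold in any of the 6 comparisons. The untreated libraries had 1338, 1361 and 1312 normalized reads, the DAC libraries 1229, 1329.8 and 1259, the ATRA libraries 1132, 1111 and 861, and the DAC + ATRA libraries 985, 1166 and 1137. The ATRA and DAC + ATRA libraries all lay below the untreated ones. The log2 fold changes were -0.07 with DAC (adjusted p = 0.606, limma), -0.38 with ATRA (adjusted p = 0.0215) and -0.29 with DAC + ATRA (adjusted p = 0.0286). With TMM in edgeR the values were -0.28 (adjusted p = 0.00443), -0.41 (adjusted p = 5.54e-04) and -0.43 (adjusted p = 5.91e-05), so that the call depended on the scaling and test. The fit of untreated and DAC + ATRA libraries alone (adjusted p = 0.00401) and that without ATRA library 9 (adjusted p = 0.00457) called it too, with the difference still at -0.29. Relative to the median of all transcripts, *CDKN1B* was at -0.29 with DAC and -0.49 with DAC + ATRA (limma).

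*RB1* (ENST00000267163, chr13:48303751-48481890, plus strand, 27 exons) had 1645, 1509 and 1469 normalized reads in untreated, 1525, 1705 and 1231 in DAC, 2052, 1694 and 1527 in ATRA and 1408, 1465 and 1675 in DAC + ATRA libraries. All groups overlapped. The log2 fold changes were -0.06 with DAC (95% interval -0.32 to 0.20), 0.18 with ATRA (-0.08 to 0.44) and -0.03 with DAC + ATRA (-0.29 to 0.23), with adjusted p from 0.3997 to 0.869 (limma). The DAC value was 0.07 without DAC library 6, and -0.26 with TMM in edgeR (adjusted p = 0.0327). Relative to the median of all transcripts, *RB1* was at -0.28 with DAC and -0.23 with DAC + ATRA (limma).

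**Figure D2:**
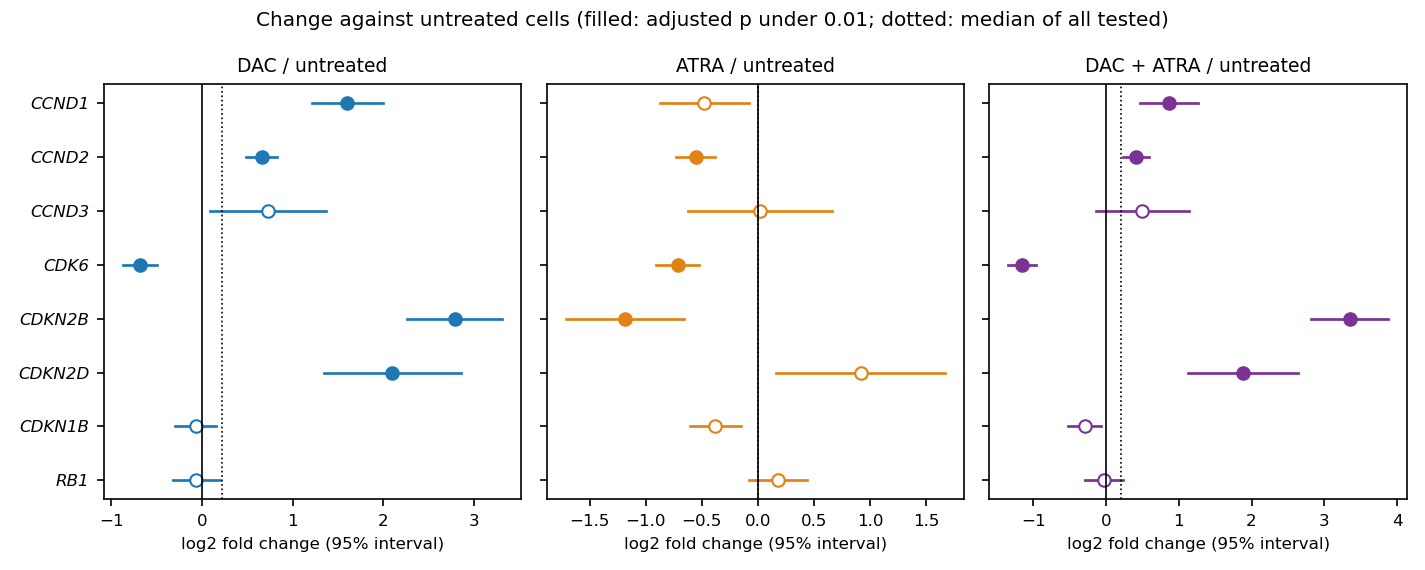
Log2 fold change against untreated cells (points, with 95% intervals from limma) of 8 leading transcripts, in a panel for each treatment with its own x axis. Filled points have an adjusted p under 0.01, and dotted lines are the median of all 9016 transcripts, 0.22 with DAC and 0.20 with DAC + ATRA; *CDK6* is left of 0 in all 3 panels.

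*CDK4* and *CCNE1* could not be tested. *CDK4*, the kinase that shares D-type cyclins with CDK6, had 320 reads over 15 transcripts and 12 libraries. Its full-length transcript ENST00000257904 (chr12:57747727-57752310, minus strand) had 1 read in all, and in GENCODE 44 it has 0 exonic bases outside other transcripts of its strand. That release may not be the one used for counting, since *CDK6* has 45 of 11612 such bases there and 129399 reads. Summed over its transcripts, *CDK4* had 33.1, 32.8 and 22.2 normalized reads in untreated, 20.5, 26.3 and 26.9 in DAC, 29.6, 26.4 and 31.6 in ATRA and 21.7, 22.1 and 13.6 in DAC + ATRA libraries. The DAC + ATRA libraries lay below all untreated ones, the nearest pair being 22.1 and 22.2. Most of these reads were on ENST00000552713 and ENST00000550419, a retained-intron transcript and a target of nonsense-mediated decay. Both passed the filter on low values only through libraries without DAC, so no test is given. All 291 countable bases of ENST00000552713 in GENCODE 44 are shared with *TSPAN31* on the opposite strand, whose transcript ENST00000547992 had 613 reads, so its 127 reads cannot be assigned with certainty. *CCNE1*, which codes for the cyclin that partners CDK2, had 17 reads in all, 8 in untreated, 4 in DAC, 4 in ATRA and 1 in DAC + ATRA libraries. Its transcript ENST00000262643 (chr19:29811991-29824312, plus strand) has 17 of 1954 exonic bases outside other transcripts. A change was not detectable with so few counted reads, and why they are few was not tested.

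**Figure D3:**
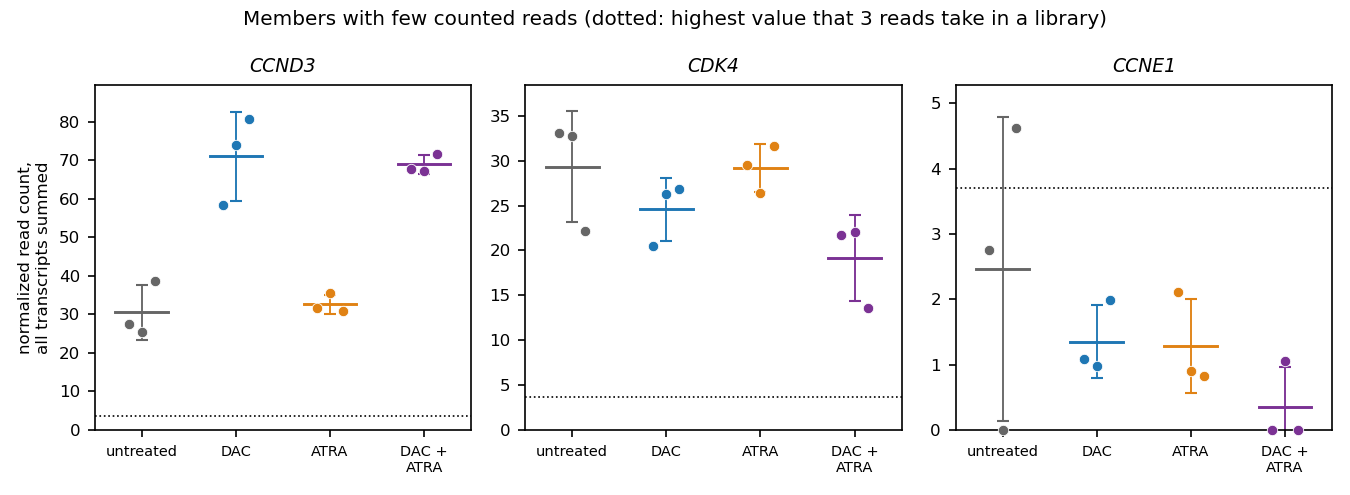
Normalized reads (linear axis from 0) summed over all transcripts of *CCND3*, *CDK4* and *CCNE1* in the 4 groups. Points are libraries, lines means and bars the SD (n = 3), and the dotted line is the highest value that 3 reads take in a library; *CCND3* sums were 25.5 to 38.8 in untreated and 58.4 to 80.7 in DAC libraries, whereas *CCNE1* stayed at or under 4.62.

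The combination was also compared with each single agent. Against DAC alone, DAC + ATRA downregulated 2 of the 8 members, *CDK6* and *CCND1*, and upregulated 0, at a background of 5.26% lower and 6.08% higher. At an unadjusted p under 0.05, 4 of the 8 differed, and edgeR and DESeq2 also upregulated 0. *CDK6* was 27.7% lower than with DAC (log2 fold change -0.46, SE 0.091, adjusted p = 8.31e-04, limma), a call made in all 24 alternatives. *CCND1* was 40.2% lower (-0.74, SE 0.19, adjusted p = 0.00954, limma), just past the threshold, and missed it in 12 of 24 alternatives. These included a pseudocount of 0.1 (adjusted p = 0.0163) and leaving out any library but untreated 1 and 3, where the adjusted p lay between 0.0125 and 0.0439 and the log2 fold change between -0.83 and -0.66. *CCND2* gave -0.25 (adjusted p = 0.0455), and passed the threshold with DESeq2 (adjusted p = 0.00330), scaled to library size (0.00181), with size factors from protein-coding transcripts (0.00898) and without ATRA library 9 (0.00867). *CDKN2B* gave 0.56 (95% interval 0.03 to 1.09, adjusted p = 0.143), so a further rise under the combination was not resolved.

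Against ATRA alone, DAC + ATRA upregulated *CCND1*, *CCND2* and *CDKN2B* and downregulated *CDK6*, at a background of 25.9% higher and 8.88% lower. Of all calls 74.5% were upregulated, and 63.6% with TMM. *CDKN2B* was 26.1-fold higher (4.53, SE 0.25, adjusted p = 6.23e-12, limma), with means of 184 against 7.06 normalized reads. *CCND1* rose by 1.35 (SE 0.19, adjusted p = 9.81e-06) and *CCND2* by 0.97 (SE 0.083, adjusted p = 4.84e-09), or by 1.19 and 0.81 relative to the median of 0.16. *CDK6* was 26.2% lower (-0.44, SE 0.091, adjusted p = 4.97e-04). *CDKN2D* gave 0.97 (adjusted p = 0.0343), and 1.45 without ATRA library 8 (adjusted p = 0.00109). *CDKN1B* and *RB1* gave 0.09 and -0.21 (adjusted p = 0.533 and 0.191), and the sign for *CDKN1B* turned under TMM (-0.02). For *RB1*, edgeR with TMM gave -0.32 (adjusted p = 0.0106), and DESeq2 passed the threshold with -0.33 (adjusted p = 0.00730).

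The DAC × ATRA interaction is 0 when the log2 fold changes of both agents add up. It passed the threshold for *CDKN2B* alone among the 8 members, where 0.787% of all transcripts had an interaction above 0 and 1.67% one below 0 at this threshold. For *CDKN2B* it was 1.75 (SE 0.36, adjusted p = 0.00466, limma), since ATRA alone gave -1.19 and ATRA on top of DAC 0.56. It missed the threshold in 11 of 22 alternatives, among them edgeR with TMM (1.87, adjusted p = 0.0188) and leaving out untreated library 2 or 3, DAC library 4 or 6, ATRA library 8 or any DAC + ATRA library (1.56 to 1.79, adjusted p from 0.0106 to 0.0236). For *CCND2* it was 0.31 (adjusted p = 0.161), and 0.40 with TMM in edgeR (adjusted p = 0.00703). For *CDK6* it was 0.25 (95% interval -0.02 to 0.52, adjusted p = 0.335), so that the fall with DAC + ATRA, -1.15, was not shown to differ from the sum of the single falls. *CDKN2D* gave -1.13 with a wide interval (-2.20 to -0.06, adjusted p = 0.257), and *CCND1* -0.26 (adjusted p = 0.684).

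**Figure D4:**
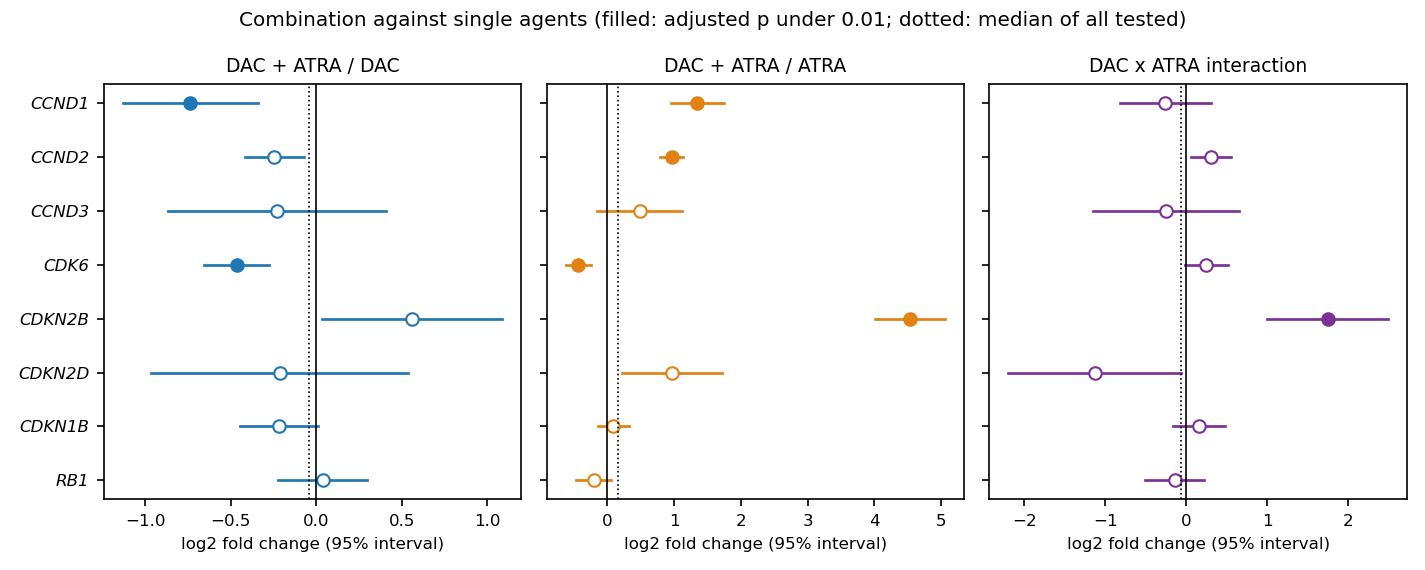
Log2 fold change of DAC + ATRA against DAC and against ATRA, and the DAC × ATRA interaction (points, with 95% intervals from limma), for 8 leading transcripts, each panel with its own x axis. Filled points have an adjusted p under 0.01 and dotted lines are the median of all transcripts; *CDK6* is filled and left of 0 in the first and middle panels, and *CDKN2B* is the filled point of the interaction.

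Other genes of the pathway were taken from 4 lists of 65 genes in all, of which 33 could be tested. The other genes had too few counted reads on the leading transcript to pass the filter. Among them were *RRM1* at a mean of 0 normalized reads, *MCM7* at 0.10, *CDK1* at 0.55 and *PCNA* at 3.06. Whether RNA level or the counting of shared bases sets this was not tested, so these genes cannot be read as not expressed. DAC upregulated 5 and downregulated 11 of the 33, and DAC + ATRA 5 and 15, against the backgrounds of 30.6% higher and 8.7% lower, and 32.6% and 14.2%. Their median log2 fold change was -0.23 and -0.27, where that of all transcripts was 0.22 and 0.20. Without untreated library 2, untreated library 3 or DAC library 6, the number called with DAC fell from 16 to 10, 9 and 9. Of the 33, *CDC25B*, *CCNA1* and *CDKN2A* passed the filter on low values only through libraries with DAC, and *MCM3* and *CCNC* only through libraries without it, so the counts are no support for a direction. ATRA called 0 of the 33 (limma), with 4 at an unadjusted p under 0.05, and edgeR and DESeq2 also called 0, at the background of 6.47% higher and 2.67% lower. The median with ATRA was -0.04.

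Of the genes that E2F factors switch on for S phase, 7 of 18 were tested, and DAC downregulated 4 and upregulated 0, DAC + ATRA 6 and 0, where 8.7% and 14.2% of all transcripts were lower and 30.6% and 32.6% higher. These counts include *MCM3*, which passed the filter only through libraries without DAC, where it was high, and without it 3 and 5 of 6 were downregulated. *MCM3*, a subunit of the replicative helicase, is described without a test, with 25.4 ± 6.27 normalized reads in untreated (SD, n = 3), 7.90 ± 3.45 in DAC and 6.64 ± 1.19 in DAC + ATRA cells. Across the pocket proteins, E2F and DP factors and the DREAM complex, which holds E2F targets silent in resting cells, 11 of 18 genes were tested. DAC downregulated 5 and upregulated 0, and DAC + ATRA downregulated 5 and upregulated 1, where 8.7% and 14.2% of all transcripts were lower and 30.6% and 32.6% higher. *TFDP1*, the dimer partner of E2F proteins, was lowest, at -0.88 (adjusted p = 2.11e-05, limma) and -1.14 (adjusted p = 5.58e-07). *E2F2* was the gene that rose with DAC + ATRA, from 4437 ± 304 to 7599 ± 624 normalized reads (SD, n = 3; 0.78, adjusted p = 4.90e-07), whereas DAC gave 0.01 and ATRA 0.13.

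Further G1 cyclins, kinases, activators and inhibitors numbered 18, of which 10 were tested. DAC upregulated 4 and downregulated 2, and DAC + ATRA upregulated 3 and downregulated 4, where 30.6% and 32.6% of all transcripts were higher and 8.7% and 14.2% lower. Of those upregulated, 3 with DAC and all 3 with DAC + ATRA were *CDC25B*, *CCNA1* and *CDKN2A*, which passed the filter only through libraries with DAC, so these counts cannot be read against the background. *CDKN2C*, which codes for the INK4 protein p18, had 61.8 ± 5.58 normalized reads in untreated and 39.1 ± 6.65 in DAC cells (SD, n = 3), with log2 fold changes of -0.66 (adjusted p = 0.00701, limma) with DAC and -0.93 (adjusted p = 2.97e-04) with DAC + ATRA. *CDKN2A*, whose locus codes for the INK4 protein p16 and for the unrelated protein ARF, had means of 7.34 in untreated, 107 in DAC, 12.3 in ATRA and 68.9 in DAC + ATRA cells on its leading transcript, which was not assigned to either protein. *CDC25B*, a phosphatase that activates cyclin-dependent kinases, was at 0 in all untreated libraries and had a mean of 19.8 normalized reads with DAC and 16.0 with DAC + ATRA. Against 3 reads per library, this is at least 7.21-fold and 5.82-fold higher, given as a description without a test. *CCNH*, the cyclin of the CDK-activating kinase, was lowest with DAC (-0.92, adjusted p = 0.00910, limma), a call lost in 10 of 24 alternatives. Without untreated library 1, 2 or 3, DAC library 4 or 6, or DAC + ATRA library 10 or 12, its adjusted p was 0.0105 to 0.0440, and summed over its transcripts the value was -0.36 (adjusted p = 0.197). *CDKN3*, a phosphatase that acts on CDK2, was lowest with DAC + ATRA (-1.49, SE 0.28, adjusted p = 1.18e-04). Among ubiquitin ligase subunits for G1 cyclins and p27, 5 of 12 were tested and *FBXW7*, which recognises cyclin E, was the gene called, where 30.6% and 32.6% of all transcripts were higher. It gave 0.81 with DAC (adjusted p = 0.00310, limma) and 0.92 with DAC + ATRA (adjusted p = 8.82e-04). The DAC call was lost in 5 of 24 alternatives, including those without untreated library 2 (adjusted p = 0.0116), untreated library 3 (0.0158) or DAC library 6 (0.0326).

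**Figure D5:**
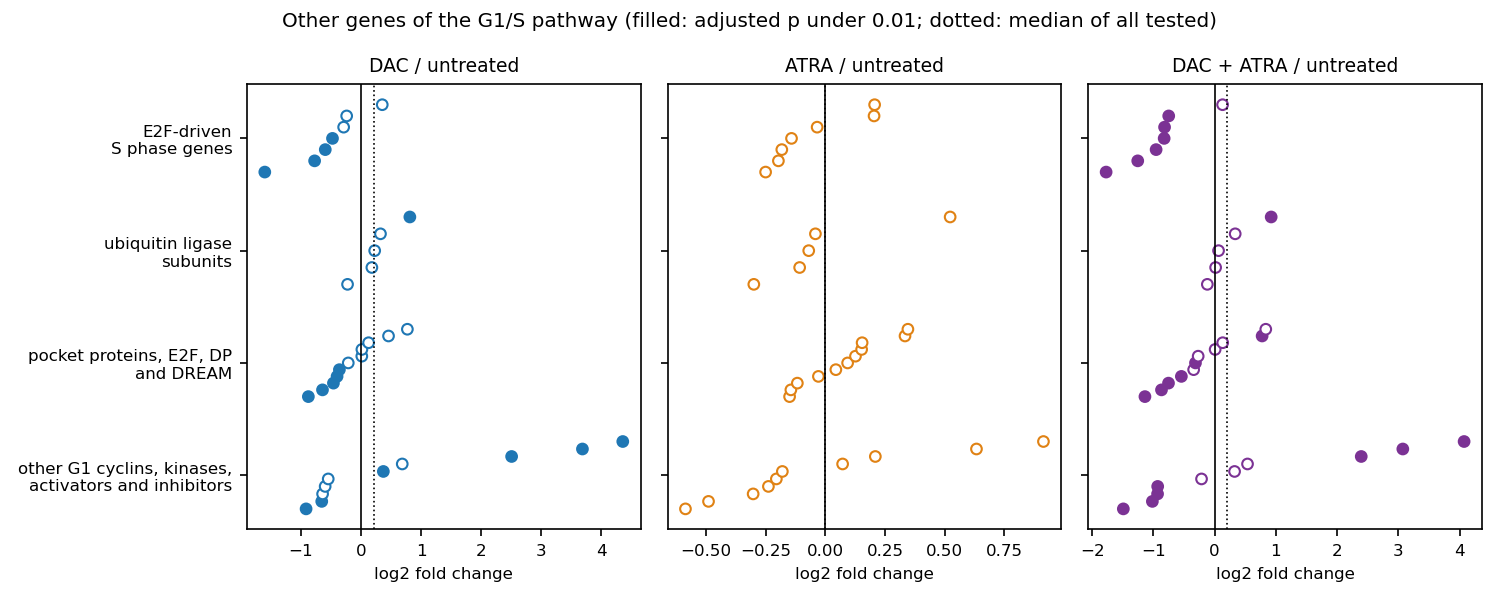
Log2 fold change against untreated cells of the 33 tested genes from 4 lists of the G1/S pathway (rows), in a panel for each treatment with its own x axis. Each point is a gene, filled points have an adjusted p under 0.01, solid lines mark 0 and dotted lines the median of all tested transcripts. With ATRA no point is filled. The S phase genes called with DAC and DAC + ATRA lie left of 0, but *MCM3* among them passed the filter only through libraries without DAC. *CDC25B*, *CCNA1* and *CDKN2A* passed it only through libraries with DAC, so the side of 0 on which these genes lie is no support for a direction.

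For each tested member, the symbols most alike over the 12 libraries were found among 7619 others by Pearson r on the log2 scale. These points share 4 groups and the same size factors, so r describes the group pattern. *CCND2* was most like *EMP1* (r = 0.998) and *ADCY9* (0.990), *CCND1* like *OSBPL3* (0.983) and *ECE1* (0.982), and *CCND3* like *MAPKBP1* (0.923) and *LRRC56* (0.887). Group means of *EMP1* were 897, 3300, 316 and 2140 normalized reads in untreated, DAC, ATRA and DAC + ATRA cells, the order of groups seen for *CCND2* but with larger steps. *CDK6* was most like *FARSB* (0.979) and *ZADH2* (0.973). Group means of *FARSB* were 4244, 2714, 2772 and 1932. *CDKN2B* was most like *ZMAT3* (0.984) and *CDS1* (0.981), *CDKN2D* like *AHCTF1* (0.969) and *ADAT3* (0.969), *CDKN1B* like *SYT7* (0.961) and *PRKAR2A* (0.936), and *RB1* like *RNGTT* (0.895) and *BUB3* (0.878).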

How the data were processed

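RNA-seq of 12 U937 libraries was used, with groups taken from the labels. The deposited values (signal) hold reads per transcript that the authors had divided by a size factor of each library. Within 0.01 read, 100% of them came out whole once multiplied back, and these recovered reads served the count tests. Per the study's methods and the labels, rRNA-depleted strand-specific libraries were aligned with STAR to hg38, counted with HTSeq and normalized with DESeq2. Versions, annotation release, counting mode and strand setting are not given in the sources used here.

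The columns name the group and a library number from 1 to 12, which is used here. Transcripts with at least 10 normalized reads in at least 3 libraries that are protein-coding were fitted with limma 3.58.1 (trend, robust) in R 4.3.3 on log2(value + 1), with 1 fit for all libraries and adjusted p (Benjamini-Hochberg) over all 9016 transcripts at a threshold of 0.01. Transcripts were matched by identifier to GENCODE 44 (hg38), which held 174768 and lacked 23014. All 10 members are named, with further transcripts that pass the filter, the highest and lowest called gene of each list against untreated cells, and the 2 symbols most like each member. *CCND2* and *CDK4* transcripts that are not protein-coding, ENST00000514382, *CDKN2A*, *CDKN2C*, *CCNA1*, *CCNC* and the *E2F2* interaction were named after their values were seen. The members and lists were chosen with earlier results of these data known.

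Alternatives were edgeR 4.0.16 (TMM or deposited size factors) and DESeq2 1.42.0 on recovered reads, other scalings, filters, pseudocount, threshold and features, only the groups compared, and leaving out each library. The fits were also run on simulated data with changes under DAC only and none in transcripts with few reads. That run held no ATRA or interaction effect, and its outcome is not used as support here. A planned comparison of levels per length was not made, since the counted bases depend on an annotation release that was not used here. Python 3.11.15 with numpy 2.4.6, pandas 2.3.3, scipy 1.17.1 and matplotlib 3.10.9 made tables and figures.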

Additional observations from a re-analysis of the deposited data

Results flagged for a closer look

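*CDKN2B* passed the threshold in the test of whether the effect of ATRA differed between cells without and with DAC. This DAC × ATRA interaction gave 1.75 on the log2 scale (SE 0.36, adjusted p = 0.00466, limma), with 3 of 3 ATRA libraries below all untreated ones and 2 of 3 DAC libraries below all DAC + ATRA ones. It missed the threshold in 11 of 22 alternatives, among them edgeR with TMM (adjusted p = 0.0188) and the fits without untreated library 2 or 3, DAC library 4 or 6, ATRA library 8 or any DAC + ATRA library. Over all alternatives its adjusted p ran from 6.15e-04 to 0.0239.

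*E2F2* also had an interaction, of 0.64 (SE 0.13, adjusted p = 0.00554, limma), with ATRA alone at 0.13 and ATRA on top of DAC at 0.76. It missed the threshold without untreated library 2 or 3, DAC library 4, 5 or 6, ATRA library 7 or DAC + ATRA library 11 or 12 (0.58 to 0.66, adjusted p from 0.0115 to 0.0260), and its adjusted p over all alternatives ran from 1.32e-06 to 0.0260.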

How the results depend on the processing

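No paired analysis was possible because the columns carry library numbers and not the replicate numbers of the titles, so no fit with a replicate block was made. Of the 1236 values of single members under an alternative, 1153 kept their direction and their side of the threshold, 36 lost the threshold, 29 gained it and 18 turned sign; the cause was not tested where none is given. With at least 10 normalized reads required in every library, 6030 transcripts are tested in place of 9016, and *CCND3*, *CDKN2B* and *CDKN2D* are not among them. The members called fell from 5 to 3 with DAC and from 5 to 3 with DAC + ATRA. Over all transcripts tested, 2283 and 2749 of 6030 were called. Against DAC alone, DAC + ATRA called 1 member in place of 2 under that filter and with a pseudocount of 0.1, and 1 to 2 when leaving out a library. The interaction called 2 members with DESeq2 and when scaled to library size, 0 with edgeR and the deposited size factors, under the stricter filter and summed by symbol, and 0 to 1 when leaving out a library. With no filter, ATRA called 1 of the other G1/S genes in place of 0, and leaving out a library gave 9 to 16 of them with DAC. Signs turned only for values that were not called. These were *CCND3* (ENST00000512426) with ATRA (-0.046 scaled to library size), *CCND3* (ENST00000372987) between DAC + ATRA and DAC (-0.00040 scaled to library size), and *CDKN1B* between DAC + ATRA and ATRA (-0.023 with TMM, -0.034 with DESeq2, -0.029 with size factors from protein-coding transcripts). Leaving out a library moved *CCND3* (ENST00000512426) with ATRA over -0.21 to 0.26 and *CCND3* (ENST00000372987) between DAC + ATRA and DAC over -0.15 to 0.31. *RB1* ranged from -0.17 to 0.067 with DAC, -0.10 to 0.025 with DAC + ATRA and -0.093 to 0.14 between DAC + ATRA and DAC. *CDKN2D* between DAC + ATRA and DAC ranged from -0.47 to 0.10, *CDKN1B* between DAC + ATRA and ATRA from -0.036 to 0.17, and the *CCND1* interaction from -0.51 to 0.0036. The values of *CCND3*, *CDK4*, *CCNE1* and *CDKN2D* rest on few counted reads. Whether depth, RNA level or the counting of shared bases sets this was not tested.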
